A study of Mus musculus with 35 samples.

Results

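Purinergic receptors and the surface enzyme that breaks down ATP were followed across brain regions in sorted mouse microglia: 8 genes of the 21236 in the count table, taken by symbol as a pathway, with earlier results of these data known. They were the ADP receptors P2ry12 and P2ry13, the UDP receptor P2ry6, the ATP-gated channels P2rx4 and P2rx7, the lysophosphatidylserine receptor Gpr34, the ectonucleotidase Entpd1 and the adenosine receptor Adora3. All 8 were in the table after the study's filter on low expression, and each was found by its GENCODE symbol and Ensembl identifier. RNA came from tdTomato-positive cells sorted from the midbrain, striatum and prefrontal cortex (PFC) of 6 male and 6 female adult mice, 17 to 18 weeks old, that carried Tmem119-2A-CreERT2 and Ai14(RCL-tdTomato)-D. Every mouse was given tamoxifen, 75 mg/kg daily for 5 days and 10 to 21 days before collection, so that no group was without the transgenes or the drug. The reporter is switched on by a Cre that depends on Tmem119 and on tamoxifen, so the sort rests on Tmem119 at the time of the drug. The paper names as a limit that microglia without TMEM119 might have been missed. There were 12 samples from the midbrain, 12 from the striatum and 11 from the PFC, where 1 male sample had been lost in preparation. The comparisons ask whether these genes differed between regions and between the sexes.

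Microglia sense nucleotides that leak from active or damaged cells. P2Y12 and P2Y13 are Gi-coupled receptors for ADP, and P2Y12 drives the extension of processes toward a source of nucleotide, while P2Y6 responds to UDP and promotes uptake of material. P2X4 and P2X7 open to ATP, and P2X7 is the known trigger of potassium loss and inflammasome assembly. CD39, the product of Entpd1, cuts ATP and ADP to AMP, which limits the supply of ligand, and adenosine formed further along acts on receptors such as A3, encoded by Adora3.

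Among these genes are 2 pairs of neighbours. On the GRCm38 build, P2ry13 (ENSMUSG00000036362) spans chr3:59207892-59210882 and P2ry12 (ENSMUSG00000036353) spans chr3:59216272-59262871, both on the minus strand and 5389 bases apart. P2rx7 (ENSMUSG00000029468, chr5:122643911-122691432) and P2rx4 (ENSMUSG00000029470, chr5:122707544-122729738) are both on the plus strand and 16111 bases apart. P2ry6 (ENSMUSG00000048779) lies at chr7:100937630-100974649, Gpr34 (ENSMUSG00000040229) at chrX:13632089-13640858, Entpd1 (ENSMUSG00000048120) at chr19:40612366-40741602 and Adora3 (ENSMUSG00000000562) at chr3:105870858-105908926. The 250 bases before the start site of each neighbour are shown because values of the members of a pair are compared with each other within samples. They come from RefSeq on GRCm38.p6 and run 5′ to 3′ on the strand of the gene, and capitals mark AGGAAG or its reverse complement. AGGAAG holds the GGAA core read by ETS-family factors such as PU.1, a regulator of myeloid genes.
P2ry12, chr3:59262986-59263235, minus strand: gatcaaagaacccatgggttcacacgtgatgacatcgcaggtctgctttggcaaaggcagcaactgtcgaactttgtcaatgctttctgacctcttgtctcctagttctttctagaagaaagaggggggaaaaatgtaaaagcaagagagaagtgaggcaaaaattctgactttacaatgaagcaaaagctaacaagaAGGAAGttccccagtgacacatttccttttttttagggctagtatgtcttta
P2ry13, chr3:59210883-59211132, minus strand: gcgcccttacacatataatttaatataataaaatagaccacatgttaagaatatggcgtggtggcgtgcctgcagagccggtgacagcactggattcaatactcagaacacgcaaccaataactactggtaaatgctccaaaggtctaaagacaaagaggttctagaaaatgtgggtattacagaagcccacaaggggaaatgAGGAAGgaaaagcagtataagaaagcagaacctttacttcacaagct
P2rx7, chr5:122643677-122643926, plus strand: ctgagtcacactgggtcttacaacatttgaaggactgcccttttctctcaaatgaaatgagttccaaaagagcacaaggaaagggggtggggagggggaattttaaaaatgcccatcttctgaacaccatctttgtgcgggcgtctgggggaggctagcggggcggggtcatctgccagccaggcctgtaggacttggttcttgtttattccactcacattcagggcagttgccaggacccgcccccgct
P2rx4, chr5:122707294-122707543, plus strand: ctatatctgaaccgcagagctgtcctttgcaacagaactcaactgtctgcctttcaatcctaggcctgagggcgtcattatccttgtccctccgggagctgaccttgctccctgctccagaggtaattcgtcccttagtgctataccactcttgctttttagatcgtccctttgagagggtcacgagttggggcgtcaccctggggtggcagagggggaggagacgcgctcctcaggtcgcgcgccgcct

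In both P2Y neighbours the motif lay close to the start site, its first base 52 bases before it for P2ry12 and 47 bases before it for P2ry13. The P2rx7 and P2rx4 windows printed above held no AGGAAG on either strand. RefSeq windows were at hand for 6 of the 8 members, 8 windows in all since P2rx7 and Entpd1 have 2 each, and 5 of these 8 held the motif: P2ry12, P2ry13, Adora3, and the downstream window of P2rx7 and of Entpd1. Over 32851 windows of the same length in the reference, 29.5% held it. The motif was chosen after the sequences had been seen, and a match describes letters and is not evidence of binding.

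Libraries held 37680501 to 54131421 counts, and the 3-count floor lay between 0.0561 and 0.0789 CPM, the unit used below, which is counts scaled to library size with TMM factors. The sorted cells carried the other microglial markers: 9 transcripts that are not members, with Csf1r, Cx3cr1 and Fcrls the highest, summed to 22725 to 29824 CPM over the 35 samples. Markers of other cells were low but not absent. Summed levels of 9 neuronal transcripts ran from 2.47 to 26.5 CPM, of 10 astrocyte transcripts from 211 to 503, of 10 oligodendrocyte transcripts from 231 to 850.1, of 9 endothelial transcripts from 11.7 to 75.8 and of 7 border macrophage transcripts from 75.8 to 215, where Stab1 alone gave a mean of 108 CPM. Sums of 6 monocyte and neutrophil transcripts and of 5 lymphocyte transcripts stayed at or under 25.1 and 13.9 CPM, and 12 immediate early genes, which dissociation is known to raise, summed to 20893 to 47358 CPM with none called for region or sex. One striatum library of mouse 3 carries a PFC tag in its column name; it was used as its label states, and leaving it out changed no call for the 8 genes. In bulk samples, fewer cells of a type and less RNA per cell cannot be told apart.

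P2ry12 was the most abundant of the 8 genes. Per kilobase of exon its mean level was 2816 ± 376 CPM (SD, n = 35), which ranked 13th among 21103 genes with an annotated length. Gpr34 followed at 1636 CPM per kilobase (rank 22) and P2ry13 at 1071 (rank 44). A wide step separated these 3 receptors from the rest: P2ry13 stood 8.62-fold above Entpd1 on average, with a range over samples of 6.63 to 11.6. Entpd1 reached 125 CPM per kilobase, P2ry6 81.8 and P2rx7 26.4. The lowest were Adora3 at 10.8 and P2rx4 at 10.4 CPM per kilobase. Each step in this order held in at least 34 of 35 samples except the last, since Adora3 exceeded P2rx4 in 19 of 35, and those 2 neighbours did not differ beyond their spread. Even the lowest gene was well counted, with 1189 to 2777 reads for Adora3.

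Relative spread between samples was smallest for P2rx7, with a coefficient of variation of 8.07%, and for Entpd1 at 9.15%. The widest were Adora3 at 18.9% and P2ry6 at 17.5%, whose highest sample stood 2.57-fold above its lowest. P2ry12 varied by 13.3%.

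**Figure D1:**
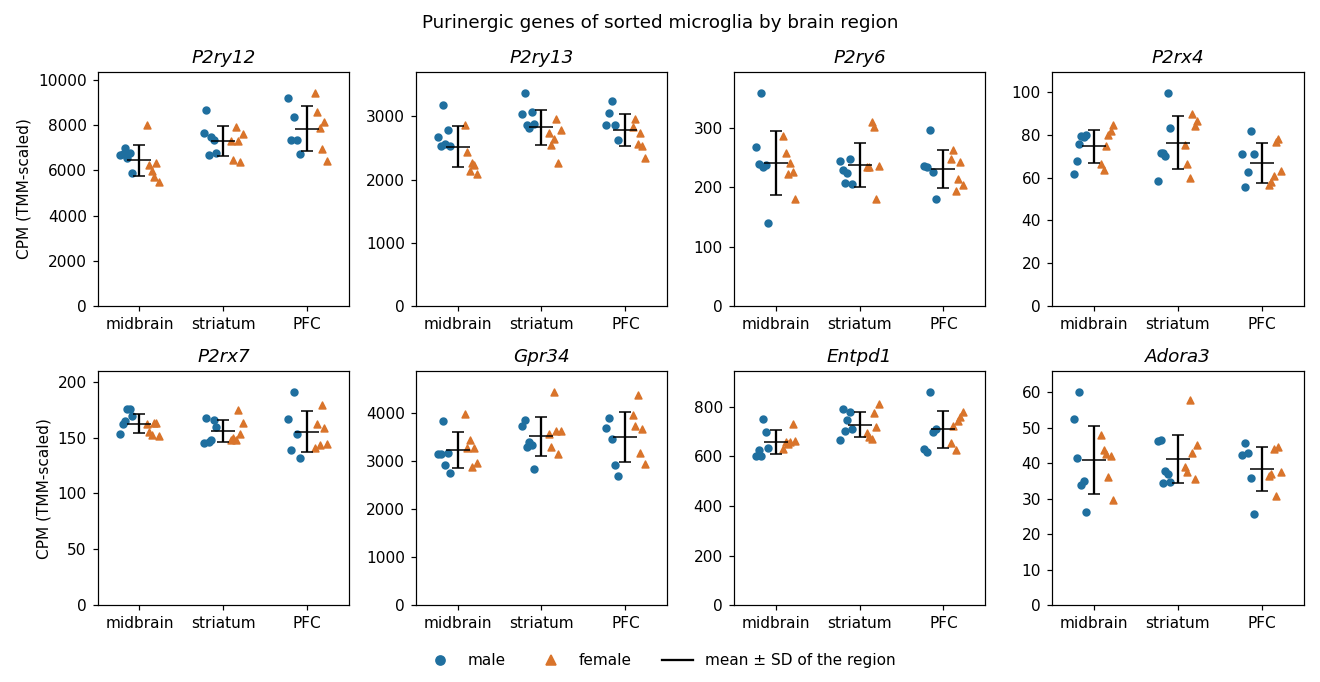
CPM of each of the 8 genes (vertical axes, from 0, a separate scale for each gene) in every midbrain, striatum and PFC sample; circles are males, triangles females, and black bars give the mean ± SD of the region. P2ry12 rose from a midbrain mean of 6436 CPM to 7842 in the PFC, and the ranges of the regions overlapped for all 8 genes.

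Midbrain P2ry12 was below that of the PFC, and this gene was the 1 member of 8 with a region effect (edgeR quasi-likelihood test, adjusted p = 0.00637). Over all genes 8.89% had a region effect, and 5.99% were called for PFC against midbrain. In the midbrain P2ry12 ran from 5481 to 8000 CPM with a median of 6425 (mean 6436 ± 673, SD, n = 12). Striatum samples lay between 6356 and 8644 with a median of 7319 (7284 ± 652, n = 12). PFC samples lay between 6397 and 9405 with a median of 7872 (7842 ± 993, n = 11). The ranges overlapped, yet within mice the direction was uniform: the PFC exceeded the midbrain in 11 of 11 animals. This difference was 1.22-fold, a log2 fold change of 0.29 (SE 0.063, 95% interval 0.16 to 0.42, adjusted p = 0.00243), just above the minimum fold of 1.2 that a call required. Without mouse 1 the log2 fold change was 0.25 and fell under that minimum, with an adjusted p of 0.0158; within mice 7 to 12 alone it was also 0.25 (adjusted p = 0.0335), and within mice 1 to 6 alone 0.32 with a region effect at an adjusted p of 0.126. P2ry12 had been singled out by the study on these same samples, so its direction here is not independent evidence.

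Striatal P2ry12 lay between the other regions. It was higher than in the midbrain in 10 of 12 mice, by 0.18 on the log2 scale (SE 0.062, adjusted p = 0.0711), under the minimum fold. Striatum and PFC differed by -0.11 (SE 0.063, adjusted p = 0.524), and the striatum was the higher in 4 of 11 mice. With mouse as a block, the striatum against midbrain difference had an adjusted p of 0.0149 at the same 0.18, still under the minimum fold.

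P2ry13, the second ADP receptor, showed a smaller difference of the same direction that did not pass. Midbrain levels ran from 2088 to 3178 CPM with a median of 2528 (mean 2520.2 ± 323, SD, n = 12). The striatum gave 2266 to 3364 with a median of 2832 (2826 ± 278, n = 12), and the PFC 2333 to 3238 with a median of 2831 (2782 ± 260, n = 11). All 3 ranges overlapped, and 10 of 12 mice were higher in the striatum and 9 of 11 in the PFC than in the midbrain. The region effect reached an adjusted p of 0.0541. Log2 fold changes against the midbrain were 0.17 for the striatum (SE 0.052, adjusted p = 0.0433) and 0.15 for the PFC (SE 0.053, adjusted p = 0.0843). The region effect passed with mouse as a block (adjusted p = 0.0159), in DESeq2 (0.0375), with a term for mice 1 to 6 against 7 to 12 (0.0249), without mouse 2 (0.0249) and without mouse 5 (0.0277), but in none of these did a pair of regions reach the minimum fold.

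Beside these differences the summed microglial markers were also lowest in the midbrain, at 23624 ± 606 CPM there, 27208 ± 1539 in the striatum and 26786 ± 854 in the PFC (SD, n = 12, 12 and 11). Csf1r alone gave 7110, 8906 and 7843 CPM of these sums. Of the 9 transcripts, 1 was called higher in the PFC than the midbrain and 4 in the striatum, with 0 lower in either. Not all ran with the sum: Trem2 was lower in the PFC than the midbrain in 8 of 11 mice, and Aif1 in 6 of 11. The midbrain was lowest too for the summed neuronal transcripts, at 4.54, 9.64 and 14.5 CPM, and for the astrocyte transcripts, at 241, 358 and 349.9 CPM. Snap25 alone gave 2.35, 4.64 and 7.30 CPM of the neuronal sums. Of 9 neuronal transcripts, 4 were called higher and 0 lower in the PFC than the midbrain, and 4 higher and 1 lower in the striatum. Th was lower than in the midbrain in the striatum of 9 of 12 mice and in the PFC of 8 of 11. Slc1a3 alone gave 171, 223 and 236 CPM of the astrocyte sums. Over the 35 samples P2ry12 correlated with the microglial sum at r = 0.55 and with the neuronal sum at 0.41, and after region and sex means were removed at 0.20 and -0.31. Lymphocyte transcripts ran opposite to P2ry12 (r = -0.45, and -0.18 without those means), with sums of 3.95, 1.60 and 0.808 CPM in midbrain, striatum and PFC. The sum of monocyte and neutrophil transcripts ran with it (0.44, and 0.24), at 3.43, 3.58 and 6.92 CPM, with PFC samples from 2.15 to 25.1. Its 6 transcripts did not move together: for PFC against midbrain 1 was called higher and 2 lower. Ccr2 was higher in the PFC in 10 of 11 mice, and Itgal was lower there in 10 of 11. For P2ry13 the correlation with the microglial sum was 0.47, and 0.26 after those means were removed. These correlations share libraries and depth, and the part of other cells in the results was not tested.

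The ADP receptors did not keep a fixed proportion. P2ry13 counts divided by P2ry12 counts in the same sample, a ratio that does not depend on scaling between libraries, gave 0.392 ± 0.0307 in the midbrain (SD, n = 12), 0.389 ± 0.0287 in the striatum (n = 12) and 0.358 ± 0.0409 in the PFC (n = 11). Within mice the PFC ratio lay under the midbrain ratio in 11 of 11 animals (mean log2 difference -0.14, SD of the differences 0.10, exact two-sided sign-flip test, p = 0.000977, the smallest that 11 mice allow, adjusted over 9 tests p = 0.00879). The striatum was above the PFC in 9 of 11 mice (mean log2 difference 0.12, exact p = 0.00977, adjusted p = 0.022). Striatum and midbrain gave nearly equal ratios, with a mean log2 difference of -0.01 and 6 of 12 mice on either side (exact p = 0.477). Whichever single mouse was left out, the 2 comparisons with the PFC kept their call. The denominator, P2ry12, was chosen with its higher PFC level in these samples known, so the lower PFC ratio is not independent of that result.

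P2rx4 had its lowest mean in the PFC and its highest in the striatum, without passing the test for region. This channel, which in microglia is held largely in lysosomes, lay between 61.6 and 84.8 CPM in the midbrain (median 77.4), between 58.5 and 99.5 in the striatum (median 73.4) and between 55.8 and 81.6 in the PFC (median 63.0). The ranges overlapped. Striatum exceeded PFC in 9 of 11 mice, by 0.19 on the log2 scale (SE 0.082, adjusted p = 0.328), and the region effect did not pass (adjusted p = 0.262). With mouse as a block it did (adjusted p = 0.0369), as it did with a term for the groups of mice (0.0314). Summed oligodendrocyte transcripts were ordered the same way, at 402 ± 61.8 CPM in the midbrain, 483 ± 151 in the striatum and 338 ± 97.0 in the PFC, and correlated with P2rx4 over the 35 samples at r = 0.66, or 0.60 after region and sex means were removed; their part in the result was not tested.

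P2rx7, the channel that gates the inflammasome, had the smallest coefficient of variation of the 8 genes over all samples, though not within the PFC, where its 11.6% exceeded the 9.33% of P2ry13 and the 10.5% of Entpd1. Its levels were 151 to 176 CPM in the midbrain (median 163), 145 to 175 in the striatum (median 151) and 132 to 190.4 in the PFC (median 153), with full overlap. Log2 fold changes against the midbrain were -0.06 for the PFC (95% interval -0.17 to 0.04) and -0.06 for the striatum (-0.16 to 0.04), so that differences above 1.2-fold lay outside both intervals. The ratio of P2rx7 to P2rx4 counts nevertheless changed between striatum and PFC. It was 2.08 ± 0.259 in the striatum (SD, n = 12), 2.19 ± 0.214 in the midbrain (n = 12) and 2.35 ± 0.357 in the PFC (n = 11). The striatum was below the PFC in 8 of 11 mice (mean log2 difference -0.19, SD 0.19, exact two-sided sign-flip test, p = 0.00977, adjusted p = 0.022), while PFC and midbrain (adjusted p = 0.197) and striatum and midbrain (adjusted p = 0.185) did not pass.

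**Figure D2:**
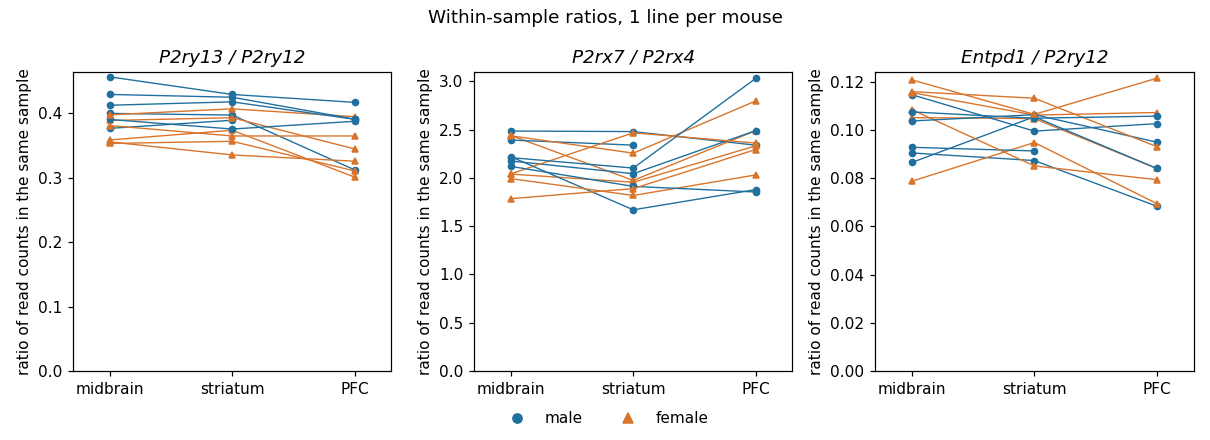
Ratio of read counts of 2 genes in the same sample (vertical axes, from 0) in midbrain, striatum and PFC, with 1 line per mouse, blue circles for males and orange triangles for females. The P2ry13 to P2ry12 ratio falls from the midbrain to the PFC in 11 of 11 mice, and the P2rx7 to P2rx4 ratio lies lower in the striatum than the PFC for 8 of 11.

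Entpd1, the enzyme that removes the ligands of the P2 receptors, was lowest in the midbrain without passing the test. It ran from 602 to 750.4 CPM in the midbrain (median 653), from 666 to 811 in the striatum (median 715) and from 616 to 857 in the PFC (median 710.4), and these ranges overlapped. Striatum exceeded midbrain in 10 of 12 mice by 0.15 on the log2 scale (SE 0.051, adjusted p = 0.0742), and PFC exceeded midbrain in 9 of 11 by 0.10 (SE 0.052, adjusted p = 0.299). The region effect had an adjusted p of 0.133. It passed with mouse as a block (adjusted p = 0.0121) and with a term for the groups of mice (0.0269), where all differences stayed under 1.2-fold. Summed astrocyte transcripts, which were lower in the midbrain too, correlated with Entpd1 at r = 0.62 over the samples (0.48 without region and sex means). Their part in the result was not tested. Slc1a3 made up most of that sum, at 171 of 241 CPM in the midbrain. Of the 10 transcripts, 4 were called higher in the PFC than the midbrain and 0 lower. Gfap, which was not called, was lower in the PFC in 8 of 11 mice. The ratio of Entpd1 to P2ry12 counts was 0.103 ± 0.0133 in the midbrain, 0.1 ± 0.00881 in the striatum and 0.0919 ± 0.0166 in the PFC. Of 11 mice, 10 had a PFC ratio under their midbrain ratio (mean log2 difference -0.19, SD 0.16, exact p = 0.00195, adjusted p = 0.00879). Between striatum and PFC it did not pass (adjusted p = 0.056), although it did without mouse 12 (0.0352). The Entpd1 and P2ry13 ratios share P2ry12 as denominator, so their lower values in the PFC are not separate findings.

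Gpr34, P2ry6 and Adora3 did not pass for region in any fit across all samples. Gpr34 ran from 2748 to 3994 CPM in the midbrain (median 3167), from 2849 to 4438 in the striatum (median 3488) and from 2694 to 4382 in the PFC (median 3679). Its log2 difference from the midbrain was 0.12 in the striatum (95% interval -0.02 to 0.26) and 0.11 in the PFC (-0.03 to 0.26), intervals that hold both 0 and the size seen for P2ry13. P2ry6 was at 139 to 358 CPM in the midbrain, 179 to 309 in the striatum and 179 to 296 in the PFC, with medians of 238, 233 and 233. The medians of this UDP receptor were nearly level, but the intervals were wide, from -0.27 to 0.15 for PFC against midbrain and from -0.22 to 0.19 for striatum against midbrain. Adora3 was at 26.4 to 60.0 CPM in the midbrain, 34.6 to 57.8 in the striatum and 25.6 to 45.9 in the PFC, with medians of 41.8, 38.4 and 37.5. For PFC against midbrain its interval ran from -0.32 to 0.14.

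Taking mouse as a block, the region effect passed for 4 of 8 members, P2ry12, P2ry13, P2rx4 and Entpd1, where 14% of all genes passed. P2ry12 was still the single member called for a pair, PFC against midbrain, where 6.85% of all genes were called; the other pairs, with 8.62% called for striatum against midbrain and 4.86% for striatum against PFC, had 0 of 8. The median log2 fold change of the members was 0.02 for PFC against midbrain (all genes 0.01), 0.08 for striatum against midbrain (all genes 0.01) and 0.03 for striatum against PFC (all genes 0.01). For striatum against midbrain 6.47% of all genes were called and for striatum against PFC 3.14%, against 0 of 8 members in each. The 2 comparisons with the midbrain share its samples.

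**Figure D3:**
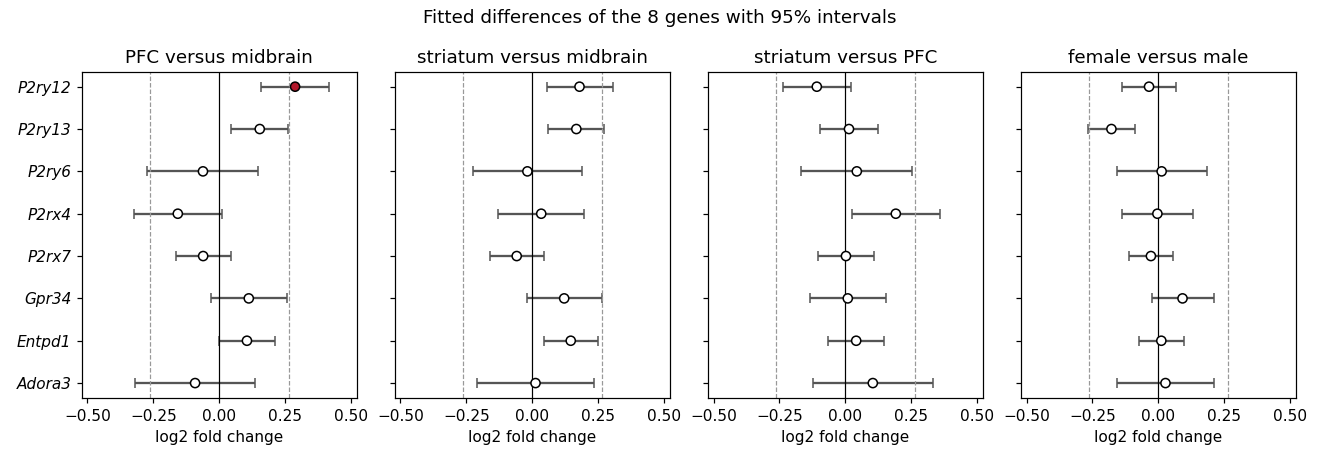
Fitted log2 fold changes of the 8 genes with 95% intervals for the 3 pairs of regions and for females against males (horizontal axes); filled points were called, and dashed lines mark a 1.2-fold change. P2ry12 in PFC against midbrain, at 0.29, is the only filled point, and P2ry13 is the only gene whose interval for sex leaves out 0.

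P2ry13 was lower in females than in males, by less than the fold required. Males gave 2706 ± 251 CPM in the midbrain (SD, n = 6), 2999.7 ± 205 in the striatum (n = 6) and 2931 ± 229 in the PFC (n = 5). Females gave 2334 ± 288, 2653 ± 236 and 2658 ± 228 in the same regions (n = 6 each). In every region the ranges of the sexes overlapped: in the midbrain males lay between 2524 and 3178 CPM and females between 2088 and 2869. The log2 fold change of females over males was -0.18 (SE 0.043, adjusted p = 0.0568, edgeR), a 0.884-fold level with an unadjusted p under 0.05. No member was called for sex, 0 of 8, against 4.13% of all genes. Since each mouse gave up to 3 samples, counts were also summed per mouse, which left -0.17 (SE 0.056), with the unadjusted p still under 0.05 and an adjusted p of 0.999975.

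Within regions the sex difference of P2ry13 was -0.21 in the midbrain (SE 0.076), -0.18 in the striatum (SE 0.076) and -0.14 in the PFC (SE 0.079), with adjusted p of 0.769 or more in edgeR. No member was called for sex in any region, where 4.84%, 2.28% and 5.29% of all genes were called in midbrain, striatum and PFC. Without mouse 2, a female with the highest female midbrain level, the midbrain difference was -0.28 and passed the call. For the other 7 genes the log2 difference between the sexes ran from -0.04 for P2ry12 to 0.09 for Gpr34. P2ry12 levels were close between the sexes, with midbrain means of 6587 ± 371 CPM in males and 6286 ± 897 in females (SD, n = 6 each). No region by sex interaction was found in edgeR for any of the 8 genes, each at an unadjusted p above 0.05. Over all genes the count was 0 (0%), with 632 at an unadjusted p under 0.05 and 1 by DESeq2.

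Samples varied together in 2 loose sets. Over 35 samples the log2 CPM of P2ry12 correlated with P2ry13 at r = 0.70 and with Gpr34 at 0.70, P2ry6 with Adora3 at 0.77, and Gpr34 with Adora3 at 0.73. P2rx4 ran opposite to Gpr34, at r = -0.46, and alongside P2rx7 at 0.43. Entpd1 was close to neither P2ry12 (0.18) nor P2ry13 (0.20). After region and sex means were removed, P2ry13 and P2ry6 correlated at 0.72 (0.47 before) and P2rx7 and Entpd1 at 0.63 (0.38 before). These points share animals, libraries and scaling, and are given as descriptions.

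Part of this variation ran with the numbering of the mice. P2rx4 was higher in mice 7 to 12, with midbrain levels of 79.1 to 84.8 CPM against 61.6 to 75.8 in mice 1 to 6, and a mean log2 difference of 0.28 over all samples. Entpd1 was also higher in mice 7 to 12 (0.15). Adora3 (-0.29), Gpr34 (-0.22) and P2ry6 (-0.18) were lower there, and P2ry12 by -0.13. Each set holds 3 males and 3 females, and what separates the sets is not given in the labels; in both sets the midbrain mean of P2ry12 was under the PFC mean, 6763 against 8477 CPM in mice 1 to 6 and 6109 against 7312 in mice 7 to 12.

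**Figure D4:**
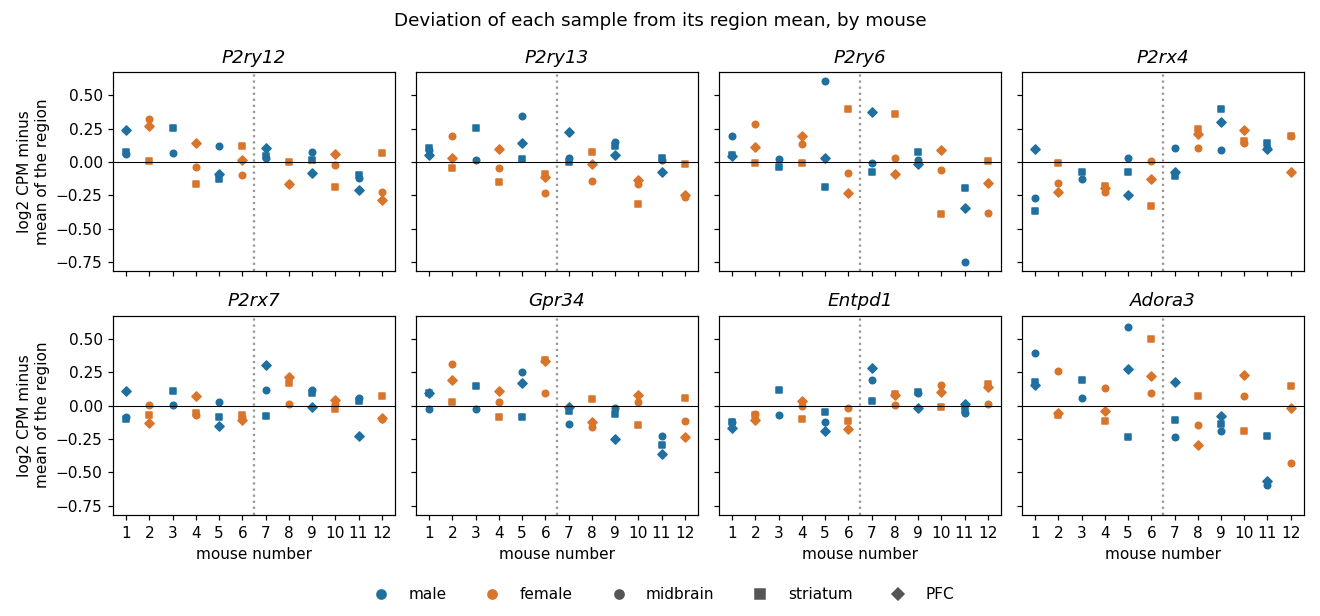
Log2 CPM of each sample minus the mean of its region (vertical axes, shared) against mouse number, for the 8 genes; blue and orange mark males and females, and circles, squares and diamonds mark midbrain, striatum and PFC. The dotted line separates mice 1 to 6 from 7 to 12: P2rx4 and Entpd1 lie higher on the right, by 0.28 and 0.15 on average, and Gpr34 and Adora3 lower, by 0.22 and 0.29.

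Among 8623 genes with a mean of at least 8 CPM, those whose log2 CPM tracked each member most closely over the 35 samples were, for P2ry12, Rbbp9 (r = 0.83), Cpped1 (0.82) and Scoc (0.82). For P2ry13 they were Inka1 (0.84), Tmem177 (0.82) and Bloc1s6 (0.81), and for Gpr34 Nudt16l1 (0.89), BC035044 (0.88) and 1110059G10Rik (0.87). P2rx4 was tracked by Ggcx (0.85) and by the sorting receptors Sorl1 (0.83) and Sort1 (0.80), and Entpd1 by the fatty acid desaturase Fads1 (0.85), Frmd4b (0.80) and Rnf216 (0.77). P2ry6 was closest to Zbtb45 (0.85), Mterf4 (0.82) and Trappc5 (0.80), Adora3 to Trappc5 (0.86), Cd320 (0.85) and BC035044 (0.85). P2rx7 had the loosest followers, 2810021J22Rik (0.74), Ano6 (0.68) and Tor4a (0.67). The correlations share depth and scaling and carry no p.

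Other genes were annotated over 7 of the 8 members, P2rx4 being the exception. P2ry12 and P2ry13 lie inside Med12l and Gpr34 inside Cask, each on the opposite strand. Med12l had a mean of 41.3 CPM and Cask of 75.5, and shared exonic sequence was 9 bases for P2ry12 and 0 for P2ry13 and Gpr34. Adora3 shares 779 exonic bases with Tmigd3 on the same strand, so that its counts are uncertain to that extent; Tmigd3 had a mean of 0.995 CPM. The microRNA gene Mir8115 lies within P2rx7 over 119 exonic bases on the same strand and is not among the counted genes. Gm44545 over P2ry6, and Gm16027, Gm8783 and AC166063.1 over Entpd1, share 0 exonic bases with the member, and of these Gm8783 alone is in the table, at a mean of 0.144 CPM. The use of strand in counting is not given in the sources used here.

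Around the members, lists of 78 other genes of nucleotide and adenosine signalling were drawn up, of which 71 were in the table and 53 had a mean of at least 1 CPM. A region effect was found for 8 of the 71 (11.3%, against 8.89% of all genes). For PFC against midbrain 1 rose and 4 fell (7.04% called, against 5.99% of all genes), for striatum against midbrain 3 rose and 3 fell (8.45% against 6.47%), and for striatum against PFC 2 rose and 0 fell (2.82% against 3.14%). Over all genes 490 rose and 177 fell in that last comparison. These shares are near those of all genes. Medians of the log2 fold changes were -0.01, 0.03 and 0.05.

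Most other receptors were counted at low levels. Apart from the members, P2rx1, at 12.4 ± 3.04 CPM (SD, n = 35), and P2ry10b, a close relative of the lysophosphatidylserine receptor gene P2ry10, at 21.1 ± 5.32, were the only receptors with a mean of at least 8 CPM, and of the breakdown enzymes only Enpp1 at 10.02 ± 2.32. Neither receptor had a region effect (adjusted p = 0.262 for P2rx1 and 0.703 for P2ry10b). For sex 3 of the 71 listed genes were called, 4.23% against 4.13% of all genes. They were P2ry10b, lower in females with a log2 fold change of -0.34 (SE 0.11, adjusted p = 0.237, edgeR), the calcium release channel gene Itpr1, higher by 0.47 (SE 0.14, adjusted p = 0.169), and the nucleoside transporter gene Slc29a4, lower in females at a mean of 0.0536 CPM that is under the floor of every library, for which no fold is given. The fit behind these sex calls took up to 3 samples of a mouse as separate. On counts summed per mouse, 658 of all genes were called for sex against 878, and these 3 genes were not examined there. Nt5e, whose product CD73 makes adenosine from AMP, had a mean of 0.0508 CPM, under the 3-count floor of every library.

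Enpp1, a phosphodiesterase that cuts ATP to AMP and pyrophosphate, was lowest in the PFC, where Entpd1 was not. It ran from 7.30 to 14.4 CPM in the midbrain, from 8.45 to 12.9 in the striatum and from 5.68 to 11.6 in the PFC, with overlap throughout. PFC against midbrain gave a log2 fold change of -0.53 (SE 0.12, adjusted p = 0.00319), lower in 10 of 11 mice, and striatum against PFC gave 0.33 (adjusted p = 0.207). Adora1, the A1 adenosine receptor, was higher in the midbrain at a low level: 5.84 ± 1.63 CPM there (SD, n = 12), 3.86 ± 1.52 in the striatum (n = 12) and 2.86 ± 1.36 in the PFC (n = 11). The PFC was below the midbrain in 11 of 11 mice (log2 fold change -1.02, SE 0.24, adjusted p = 0.00437) and the striatum in 10 of 12 (-0.60, adjusted p = 0.111). Adora3 showed no such difference, with an interval of -0.32 to 0.14 for PFC against midbrain; the difference between the 2 adenosine receptors was not tested.

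Downstream of the receptors, Casp1, the inflammasome protease that P2X7 signalling engages, was higher in the midbrain. It ran from 46.1 to 56.5 CPM in the midbrain, 32.4 to 42.8 in the striatum and 37.9 to 49.4 in the PFC, so that midbrain and striatum did not overlap. Log2 fold changes were -0.42 for striatum against midbrain (SE 0.053, adjusted p = 2.04e-06, lower in 12 of 12 mice) and -0.29 for PFC against midbrain (SE 0.054, adjusted p = 0.000342, lower in 11 of 11). It was the 1 gene of 8 in its list that was called, and P2rx7 itself was not. Of 15 Gi coupling and process movement genes, Pik3r5, a regulatory subunit of PI3K gamma, was called for striatum over midbrain (0.26, adjusted p = 0.0322), while the GTPase Rap1b had a region effect (adjusted p = 0.0458) with no pair past the minimum fold.

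Plcb3, a phospholipase C of the Gq arm that P2Y6 uses, stood above its midbrain level in the striatum of 12 of 12 mice (log2 fold change 0.47, SE 0.14, adjusted p = 0.0269), and above its PFC level by 0.32 (adjusted p = 0.328). It was the 1 of 9 genes of that list called for region. The channel gene Calhm6 was lowest in the midbrain, at 10.5 ± 3.14 CPM against 15.1 ± 3.45 in the striatum and 15.5 ± 3.62 in the PFC (log2 fold changes 0.52, adjusted p = 0.0166, and 0.56, adjusted p = 0.0114). Slc28a2 completed the 8, at a mean of 0.0556 CPM that is under the floor of every library. None of 4 NTPDases of internal membranes and none of 3 genes of lysophosphatidylserine handling had a region effect in edgeR.

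**Figure D5:**
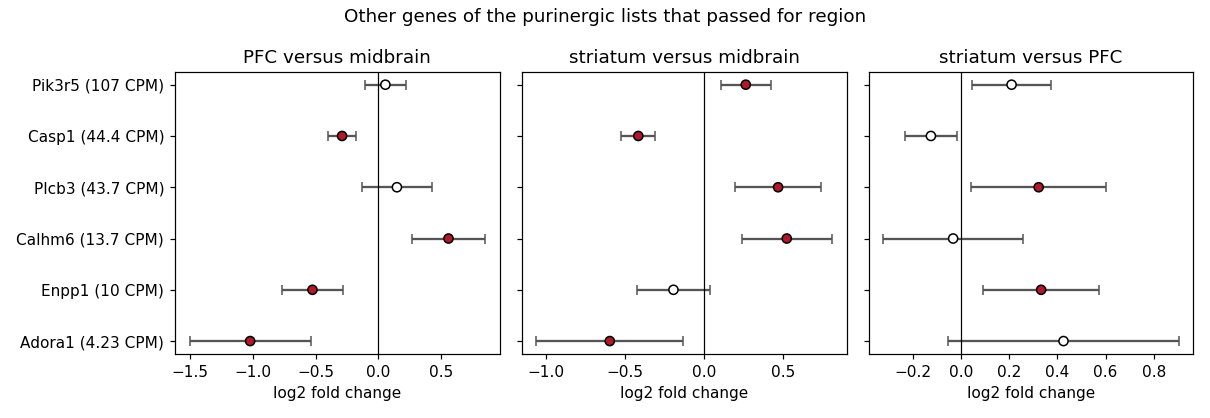
Log2 fold changes with 95% intervals (horizontal axes, a separate scale for each panel) of the 6 other purinergic genes with a mean of at least 1 CPM and a call for at least 1 pair of regions; filled points were called, and mean CPM stands beside each symbol. Adora1, Enpp1 and Casp1 lie below 0 in PFC against midbrain, and Calhm6 lies above it.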

How the data were processed

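RNA of tdTomato-positive microglia was sequenced (Smart-Seq HT cDNA, Nextera XT, paired reads) from 35 samples. Values are read counts for each Ensembl gene, raw as deposited by the authors: per the paper's methods they trimmed reads with Trimmomatic, aligned them to GRCm38 with HISAT2 and removed genes with low expression; the counting tool, annotation release and use of strand are not given in the sources used here. No read was aligned again. Total counts ran from 37680501 to 54131421, and the 3-count floors cover counting error only, whereas fitted intervals include the spread between samples.

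Counts were fitted in edgeR 4.0.16 (R 4.3.3; TMM, robust quasi-likelihood F-test) over all 21236 genes and 35 samples with region and sex as additive terms; sex within a region and the interaction came from a fit of 6 groups. For region the Benjamini-Hochberg adjusted p had to be under 0.05, a pair of regions needed in addition an unadjusted p under 0.05 and a fold over 1.2, and sex needed the last 2 (the study's cut-offs). CPM use TMM factors, and log2 CPM a prior count of 2; lengths and positions are from a GENCODE GRCm38 annotation. The within-sample ratios used exact sign-flip tests over mice. Fits were tested on simulated data that held no effect of the mouse, so that test does not cover correlation between samples of the same mouse. Python 3.11.15 with matplotlib 3.10.9 drew the plots.

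Mouse numbers come from the sample titles, and the mouse pairs the regions. Over 8623 genes, deviations from group means correlated at a mean r of 0.347 in 34 same-mouse pairs. In 255 pairs of other mice of the same sex the mean r was -0.11, a value that removing group means pulls below 0 by itself. Alternatives were DESeq2 1.42.0, its size factors in edgeR, 2 filters, the mouse block, other call rules, a term for or fits within mice 1 to 6 and 7 to 12, counts per mouse, and leaving out each mouse or the striatum library of mouse 3. The members, gene lists and alternatives were chosen with earlier results of these data known. Named genes are the members; pathway genes with a mean of at least 1 CPM called for region and a pair, or receptors and breakdown enzymes with at least 8 CPM; the 3 genes most correlated with each member; genes that overlap a member; and the top markers of each list. One gene of the microglial marker list is not reported here and was left out of its sums. Nt5e, Rap1b, Slc28a2, Slc29a4 and Itpr1 were named outside this rule after their values were seen, as were marker transcripts that ran against the sum of their list. The main fits held no term for the mouse, so their p-values measure the spread between the 35 samples, which came from 12 mice.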

Additional observations from a re-analysis of the deposited data

Results flagged for a closer look

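Over 48 combinations of gene, region and sex, 3 samples stood far from the rest of their group by Dixon's test, where chance gives about 1 in 20 groups, and all 3 came from females. P2ry12 in the midbrain of mouse 2 was at 8000 CPM (7999.86), while the other 5 females lay between 5481 and 6304 CPM. Gpr34 in the striatum of mouse 6 was at 4438 CPM, above the other females at 3158 to 3634 CPM. Entpd1 in the midbrain of mouse 10 was at 731 CPM (730.94), above the other females at 630.1 to 662 CPM. With mouse 2 left out, P2ry12 kept its region effect and its call for PFC against midbrain.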

How the results depend on the processing

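Of 285 recomputed values that answer a comparison, 268 were classed as unchanged. For a total of called genes this means only that it stayed within a preset factor of the main total. For a within-sample ratio it means that direction and call were kept. Of the rest, 15 totals moved further and 2 ratios gained a call. Fewer genes are tested under stricter filters: with filterByExpr (16966 genes) the sex calls within midbrain, striatum and PFC fell to 660, 306 and 741, and with at least 10 counts in every sample (12169 genes) the calls were 812 for PFC against midbrain, 436 for striatum against PFC, 459 for sex, and 457, 258 and 501 for sex within the 3 regions, against 1271, 667, 878, 1027, 484 and 1124. With the mouse as a replicate block in place of sex, the pairing gave 2977 genes with a region effect (1888 without) and 1032 for striatum against PFC; a term for the groups of mice gave 1009 there and an adjusted p for the pair itself 121. Dropping the minimum fold gave 1704 genes for sex, and DESeq2 gave 1 interaction; the cause was not tested. The ratio of P2rx7 to P2rx4 between striatum and midbrain passed without mouse 6 (range over mice left out -0.12 to -0.055), and Entpd1 to P2ry12 between striatum and PFC without mouse 12 (0.13 to 0.19).

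Signs turned for uncalled differences near 0. For striatum against PFC, P2rx7 was -0.0012 with filterByExpr, -0.0030 without the striatum library of mouse 3 and -0.023 to 0.048 over mice left out, Gpr34 was -0.0051 without that library, -0.082 within mice 1 to 6 and -0.016 to 0.038 over mice, P2ry13 was -0.017 within mice 1 to 6 and -0.0079 to 0.040 over mice, P2ry6 was -0.021 to 0.098 over mice, and Entpd1 was -0.00037 within mice 7 to 12. For striatum against midbrain, P2ry6 was 0.0041 with the replicate block, 0.15 within mice 7 to 12 and -0.078 to 0.057 over mice, Adora3 was -0.0081 without that library, -0.14 within mice 1 to 6 and -0.046 to 0.089 over mice, and P2rx4 was -0.026 within mice 1 to 6. For PFC against midbrain within mice 7 to 12, P2ry6 was 0.11 and Adora3 0.093. For sex, P2rx4 was 0.0012 with the term for mouse groups and -0.049 to 0.061 over mice, P2ry6 was -0.064 to 0.058, Entpd1 -0.0095 to 0.053 and Adora3 -0.056 to 0.089. For P2ry12, PFC against midbrain ran from 0.25 to 0.30 over mice left out.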
